A study of Homo sapiens with 18 samples.

Results

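Basic fibroblast growth factor (bFGF, the protein of the FGF2 gene) is a signal that neuroepithelial cultures are often grown in. The comparison described here is of day 10 neuroepithelial cells given bFGF from day 6 with day 10 cells given none. Its members are 6 of the 18 arrays of the study, 3 RNA pools in each group, chosen by the sample titles, with the pool number in the title as the pair. All cells came from H9, 1 human embryonic stem cell line, so no other genetic background enters. The treated cells are primitive neuroepithelium of day 10 with bFGF, and the controls are primitive neuroepithelium of day 10 without it. The same contrast in definitive neuroepithelium of day 17, with bFGF again from day 6 against none, is used where the effects of both days are set side by side. ES cells and embryoid bodies of day 6 (cell aggregates in suspension) enter only as levels. The labels give the dose as 20 ug/ml at day 10 and as 20 ng/ml at day 17, and the sources do not settle the unit at day 10. For 1 day 10 bFGF sample the title says pool 2 and the description pool 1; the title was followed. The labels do not say whether the neuroepithelial pools came from separate cultures, so p-values reflect only how much these pools varied, which may be technical.

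FGF ligands bind receptor tyrosine kinases together with heparan sulfate, and the receptor signals through RAS and the kinases RAF, MEK and ERK. Active ERK raises transcription factors of the ETS, EGR and AP-1 families. It also raises its own inhibitors, the Sprouty and SPRED proteins and the dual-specificity phosphatases, which are widely read as a record of FGF activity. In neuroepithelium FGF is known for keeping progenitors dividing, for patterning the midbrain and hindbrain, and for holding back neuronal differentiation.

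Each array gave 1 linear signal (intensity) for each probe set. Signals of different probe sets are not read as relative amounts of RNA. Sums, and words such as bright or dim, describe signal only. Of the 8 neuroepithelial markers, the lowest signal on any day 10 array was 401, for SOX1. The summed signal of the 8 was 21661 to 26536 with bFGF and 21721 to 31132 without. In ES cells the same sum was 7173 to 8855, and at day 6 it was 12015 to 14814. Both day 10 groups thus carried the markers of their label above those levels, though signal of these markers is not confined to neuroepithelium. In bulk RNA, fewer cells of a type and less RNA per cell cannot be told apart. The arrays of pool 2 stood apart in low signals, with medians of 49.5 with bFGF and 50.8 without. The medians of the other 4 day 10 arrays were 30.1 to 31.9. The ratio of 3' to 5' ACTB control signal was also higher in pool 2, at 2.57 with bFGF and 2.32 without, against 1.49 to 1.65 on the other 4. Because both groups hold a pool 2 array, the pool number was kept as a block in the test.

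Few genes passed the test of bFGF against none at day 10, and most of those that passed rose. Of 19775 genes, 24 (0.121%) rose and 3 (0.0152%) fell, together 27 (0.137%), with an adjusted p under 0.05 (limma, Benjamini-Hochberg over all genes). The fit held the 12 neuroepithelial arrays of both days, so the spread was partly estimated from day 17. On the day 10 arrays alone 0 genes passed, and the counts of other fits are given at the end. Every one of the 27 changed at least 2-fold on the log2(signal + 16) scale, had the same sign in all 3 pools, and had groups of 3 that did not overlap. Among all genes, 3.14% had groups that did not overlap with bFGF higher, and 2.95% with bFGF lower. The test selects for such traits, so they describe the calls and are no added support for them. Without adjustment, a p under 0.05 was reached by 767 genes higher with bFGF (3.88%) and by 712 lower (3.6%). Below, the called genes are grouped by what they are known to do; the grouping was made after their values were seen and was not tested for enrichment.

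**Figure D1:**
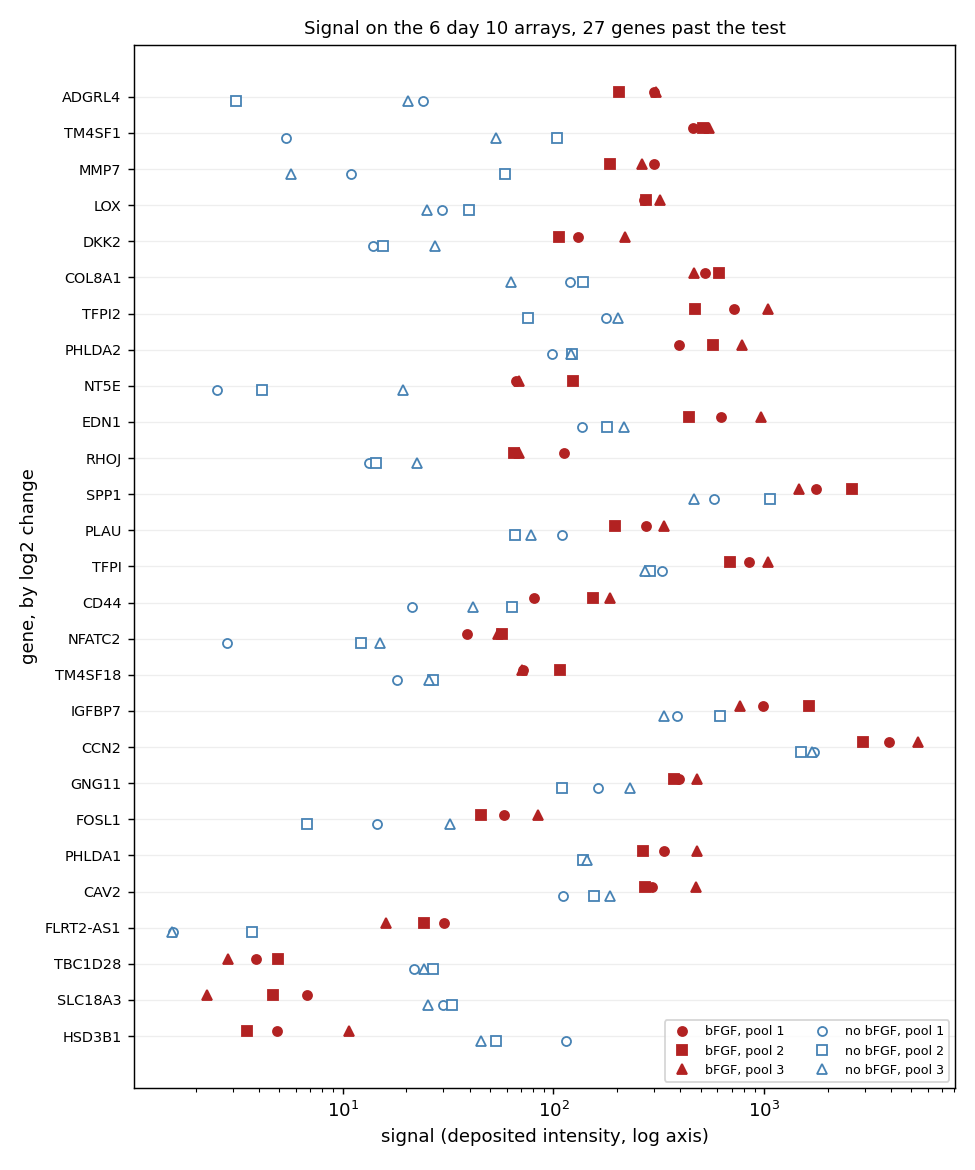
Signal of the 27 genes past the test on each of the 6 day 10 arrays, on a log axis; filled red symbols are bFGF pools and open blue symbols pools without bFGF, and the symbol shape gives the pool. All 3 filled symbols lie to the right of the open ones for 24 genes and to the left for 3 (TBC1D28, SLC18A3 and HSD3B1).

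The gene with the largest increase was ADGRL4, an adhesion G protein-coupled receptor known from endothelium and also called ELTD1. Its signal was 299, 204 and 306 in bFGF pools 1 to 3, against 24.1, 3.13 and 20.3 in the pools without bFGF. All bFGF pools were bright, and each control pool was below the median signal of its array. The change was 3.21 ± 0.31 (log2, SE; 95% interval 2.52 to 3.91; adjusted p = 0.00792). TM4SF1, a small 4-pass membrane protein of the cell surface, had 457, 514 and 546 with bFGF, against 5.35, 104 and 53.5 without. Here the bFGF pools were close to each other and the control pools were spread, and the change was 3.21 ± 0.41 (adjusted p = 0.0305). Of its other 4 probe sets 2 had changes of 3.46 and 1.96 and the dimmest 2 had -0.17 and -0.43. Across all called genes, 39 of 51 other probe sets (19 genes) had the sign of the one used, and 4 of the 51 passed the test over all probe sets. The relative TM4SF18 rose by less, with 71.9, 107 and 71 with bFGF against 18.1, 26.7 and 25.6 without (log2 change 1.32, adjusted p = 0.0454). TM4SF18 was named after its values were seen, as were CAV2, CCN2, FLRT2-AS1, GNG11, IGFBP7 and NFATC2 below.

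LOX, COL8A1, MMP7 and PLAU, which act on or in the extracellular matrix, were among the increases. LOX, the oxidase that cross-links collagen and elastin, gave the smallest adjusted p of the comparison. Its signal was 268, 276 and 319 with bFGF, against 29.5, 39.8 and 25.1 without. Both groups were tight and far apart, and the change was 2.68 ± 0.17 (adjusted p = 0.000773). COL8A1, a short-chain collagen of basement membranes, had 525, 609 and 466 with bFGF, against 120, 138 and 62.7 without (2.21 ± 0.21, adjusted p = 0.00724). The matrix protease MMP7 had 300, 186 and 263 with bFGF, against 10.9, 59.1 and 5.70 without. Pool 2 was the lowest bFGF pool and the highest control pool for MMP7, whose change was 2.89 ± 0.40 (adjusted p = 0.0329). PLAU, the urokinase that activates plasminogen, had 276, 195 and 334 with bFGF, against 110, 65.8 and 78.0 without (1.49 ± 0.19, adjusted p = 0.0305).

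The protease inhibitors TFPI2 and TFPI rose as well. TFPI2, a secreted inhibitor of plasmin and other serine proteases, had 721, 468 and 1042 with bFGF, against 177, 75.3 and 202 without. Each bFGF pool was well above its own control pool, and the change was 2.21 ± 0.18 (adjusted p = 0.00368). TFPI, the tissue factor pathway inhibitor of coagulation, had 850, 690 and 1039 with bFGF, against 326, 287 and 272 without (1.48 ± 0.18, adjusted p = 0.0302). Of the other matrix-linked secreted proteins, SPP1 (osteopontin) had 1769, 2621 and 1465 with bFGF, against 581, 1067 and 463 without (1.50 ± 0.21, adjusted p = 0.0329). Pool 2 was the highest of its group in both arms for SPP1, so the within-pool differences (1.58, 1.28 and 1.63) were closer than the signals. CCN2, a matricellular protein also called CTGF, had 3909, 2932 and 5381 with bFGF, against 1715, 1489 and 1679 without (1.27 ± 0.17, adjusted p = 0.0328). IGFBP7, a secreted binding protein of insulin-like growth factors, had 982, 1634 and 772 with bFGF, against 384, 615 and 335 without (1.29 ± 0.15, adjusted p = 0.0249).

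Of the list of 20 matrix genes and their proteases, 19 were measured and 1, PLAU, passed the test. LOX, COL8A1, MMP7, TFPI2 and SPP1 were not on that list. Like the other lists below, it was drawn up with earlier results of these data known. Its counts and median are therefore a description and no support. 11 of the 19 were higher in all 3 pools, beside 13.2% of all genes, and 0 were lower in all 3, beside 15.7% of all genes. The median change of the list was 0.38, against -0.02 over all genes (log2), and 9 of the 19 had an unadjusted p under 0.05 with bFGF higher. The gelatinase MMP2 had 932, 500 and 1445 with bFGF and 480, 256 and 681 without (0.98, adjusted p = 0.159). Fibronectin (FN1) had 3758, 4854 and 3143 with bFGF and 2869, 2823 and 1269 without (0.82, adjusted p = 0.494). The laminin chain LAMC1 averaged 2286 with bFGF and 1495 without (0.61, adjusted p = 0.486), and collagen COL4A1 1906 and 1169 (0.72, adjusted p = 0.49). None of these 4 passed the test. Without 1 array or pool the list's median was 0.23 to 0.45, lowest without bFGF pool 3.

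The secreted proteins DKK2 and EDN1 rose as well. DKK2, a secreted protein of the Dickkopf family that acts on the Wnt co-receptor LRP6, had 131, 106 and 218 with bFGF, against 13.9, 15.6 and 27.4 without. The groups were far apart and pool 3 was the highest in both, and the change was 2.23 ± 0.23 (adjusted p = 0.00912). DKK2's other probe set had the opposite sign (log2 change -0.36, mean signal 33.0). EDN1, the vasoactive peptide endothelin-1, had 627, 440 and 968 with bFGF, against 136, 180 and 215 without (1.80 ± 0.22, adjusted p = 0.0302). Among 16 measured Wnt ligands and secreted antagonists DKK2 alone passed. DKK2 is a marker given for this comparison, so its call on this list is a description only. The list's median of 0.10 rested on single arrays: it was -0.10 without bFGF pool 2, 0.25 without bFGF pool 3, 0.23 without control pool 2 and 0 without control pool 3. SFRP2, another Wnt antagonist, had 3368, 4105 and 4353 with bFGF and 5258, 6061 and 9510 without (-0.78, adjusted p = 0.402). Among 13 measured Wnt response genes 0 passed, their changes ran from -0.20 to 0.35, and the median was -0.06 (-0.09 to 0.06 without 1 array or pool). GREM1, a secreted BMP antagonist, had 1345, 1088 and 1272 with bFGF and 466, 376 and 273 without. Its groups did not overlap, but its change of 1.72 ± 0.32 missed the threshold (adjusted p = 0.112).

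Several cell-surface and membrane-linked genes were among the increases. NT5E, the surface enzyme CD73 that makes adenosine from AMP, had 66.3, 124 and 68.8 with bFGF, against 2.53, 4.15 and 19.4 without (2.07 ± 0.28, adjusted p = 0.0328). CD44, a receptor for hyaluronan, had 81.0, 154 and 185 with bFGF, against 21.2, 63.6 and 41.5 without (1.43 ± 0.19, adjusted p = 0.0328). RHOJ, a small GTPase known from endothelium, had 112, 65.1 and 68.8 with bFGF, against 13.3, 14.3 and 22.4 without (1.57 ± 0.21, adjusted p = 0.0328). Probe sets of RHOJ disagreed: the other 6 had changes of -0.23 to 1.09, and 3 of them (0.03, 0.50 and 0.66) had mean signals of 44.8 to 48.6, close to the 49.4 of the one used. NT5E's other 3 had 0 to 0.64 and CD44's other 8 -0.65 to 1.49. The controls of NT5E and RHOJ were below the median signal of their arrays. GNG11, a G protein gamma subunit, had 395, 373 and 478 with bFGF, against 163, 110 and 231 without (1.27, adjusted p = 0.0305). CAV2, a caveolin of membrane pits, had 292, 273 and 476 with bFGF, against 111, 155 and 186 without (1.11, adjusted p = 0.0449). NFATC2, a calcium-regulated transcription factor, had 38.9, 56.8 and 54.3 with bFGF, against 2.82, 12.2 and 15 without (1.37, adjusted p = 0.0331), while its other 3 probe sets, with mean signals of 7.08 to 19.5, had changes of -0.72 to 0.34. FLRT2-AS1, an antisense RNA named for the gene FLRT2, had 30.2, 24.2 and 16 with bFGF, against 1.56, 3.69 and 1.54 without (1.10, adjusted p = 0.0332). All of these FLRT2-AS1 values were below the median signal of their arrays. FLRT2 itself, which codes for a surface protein that binds FGF receptors, averaged 496 with bFGF and 595 without (-0.24, adjusted p = 0.833).

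Some of the genes that ERK raises passed the test. Of 20 ERK target transcription factors and early response genes, 19 were measured, 3 passed the test as increases (PHLDA2, PHLDA1 and FOSL1) and 0 as decreases, beside 0.121% of all genes as increases. PHLDA2 is a marker given for this comparison, and the list was drawn up with earlier results of these data known. The count is therefore a description and no support. PHLDA2, an imprinted pleckstrin-homology protein, had 395, 573 and 787 with bFGF, against 97.9, 123 and 121 without. The controls were tight and every bFGF pool lay above them, and the change was 2.16 ± 0.22 (adjusted p = 0.00876). PHLDA2's other 2 probe sets were dim and did not show it (0.14 and -0.07, mean signals 37.7 and 8.09). PHLDA1, its relative, had 335, 267 and 478 with bFGF, against 139, 138 and 145 without (1.22 ± 0.17, adjusted p = 0.0328). FOSL1, the AP-1 subunit FRA1, had 58.2, 45.1 and 84.6 with bFGF, against 14.5, 6.79 and 32.2 without (1.25 ± 0.19, adjusted p = 0.0451).

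IER3, an early response gene that acts on ERK signalling and survival, had 2003, 1148 and 1645 with bFGF and 650, 506 and 661 without. Its groups did not overlap, and its change of 1.35 ± 0.22 missed the threshold (adjusted p = 0.0665). The ETS-family gene ELK3 averaged 647 with bFGF and 290 without (1.16, adjusted p = 0.16). The classical FGF targets ETV4 and ETV5, also ETS factors, averaged 136 and 637 with bFGF and 73.8 and 552 without (0.85 and 0.21, adjusted p = 0.418 and 0.829). FOS and EGR1 showed changes of 0.02 and 0.17. KLF2, a Kruppel-like factor on the same list, had the opposite sign, with a mean of 3.73 with bFGF and 22.6 without (-0.96, adjusted p = 0.207). In all, 10 of the 19 were higher in all 3 pools and 3 were lower in all 3, beside 13.2% and 15.7% of all genes. The median was 0.34 (0.27 to 0.50 without 1 array or pool).

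None of the feedback inhibitors of ERK passed the test at day 10. Of 14 measured, 0 passed the test in either direction, 10 were higher in all 3 pools (13.2% of all genes) and 1 was lower in all 3 (15.7% of all genes). 5 had an unadjusted p under 0.05 with bFGF higher (3.88% of all genes) and 1 with bFGF lower (3.6%). The median was 0.20, and 0.14 to 0.30 without 1 array or pool. DUSP6, the phosphatase of ERK, had 3384, 1775 and 4663 with bFGF and 2220, 1208 and 2685 without. Each bFGF pool was above its own control pool but the groups overlapped, and the change was 0.65 ± 0.21 (adjusted p = 0.475). SPRY1 averaged 1118 ± 322 with bFGF and 919 ± 209 without (SD, n = 3 each; 0.27, adjusted p = 0.783). SPRY4 had 331, 149 and 365 with bFGF and 150, 126 and 146 without (0.84, adjusted p = 0.511). SPRED3, an inhibitor of RAS signalling, was the member lower in all 3 pools, with 58.7, 51.3 and 39.7 with bFGF and 81.9, 76.4 and 85.3 without (-0.57, adjusted p = 0.516).

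DUSP6 and SPRY1 without bFGF had lower signals at day 17 than at day 10, in values that did not overlap, a difference that was not tested here. DUSP6 averaged 3374 ± 874 with bFGF and 460 ± 106 without at day 17 (log2 change 2.82, adjusted p = 0.0012), and it averaged 3274 ± 1447 with bFGF and 2038 ± 755 without at day 10 (SD, n = 3 each). In day 6 embryoid bodies it averaged 336 ± 109. SPRY1 averaged 1640 ± 245 with bFGF and 302 ± 73.4 without at day 17 (2.40), and 271 ± 54.9 at day 6. The difference between the day 10 and day 17 effects was -2.17 for DUSP6 and missed the threshold in a test of the difference itself (adjusted p = 0.119). For SPRY1 it was -2.14 (adjusted p = 0.0727). 5 of the 14 inhibitors passed at day 17 as increases, beside 52 of all genes (0.263%). That 0 passed at day 10 and 5 at day 17 is not by itself a difference between the days.

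The FGF ligands and receptors did not pass the test at day 10. Of 15 ligands and 13 receptors and surface partners measured, 0 were called in either direction, and the medians were -0.05 and -0.03. Without 1 array or pool they ran from -0.17 to 0 and from -0.12 to 0.10. FGF1, an acidic FGF, had 48.8, 70.4 and 47.6 with bFGF and 3.10, 25 and 5.65 without (1.46 ± 0.31, adjusted p = 0.163). FGF9 had 231, 324 and 213 with bFGF and 351, 392 and 346 without (-0.50, adjusted p = 0.385). FGF2, the gene of the added factor, averaged 212 with bFGF and 289 without (-0.40, adjusted p = 0.72). The receptor FGFR1 averaged 700 with bFGF and 586 without (0.27, adjusted p = 0.824), and FLRT3, a receptor partner, 1151 and 1775 (-0.62, adjusted p = 0.413).

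**Figure D2:**
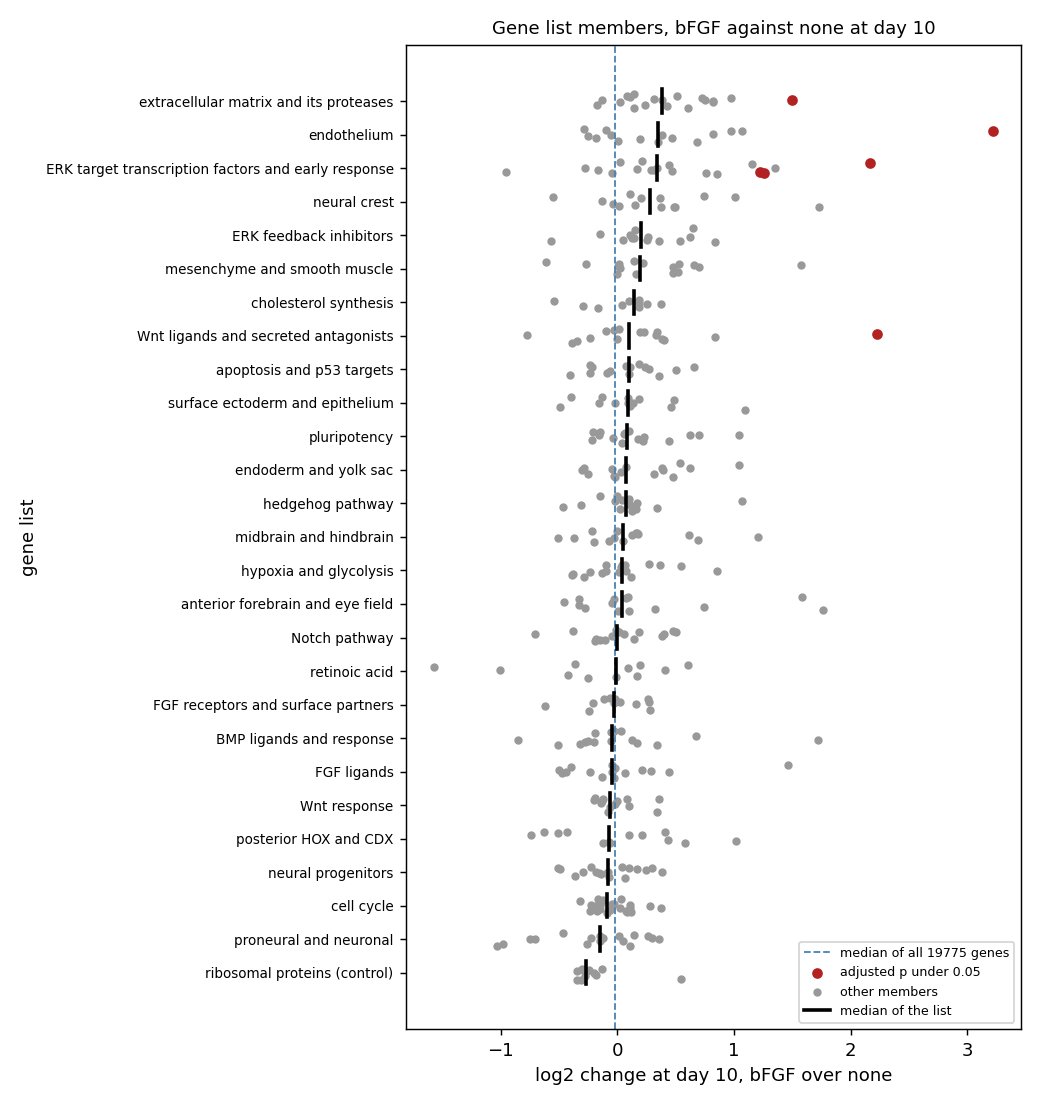
Log2 change at day 10 (bFGF over none) of each measured member of 27 gene lists; red points passed the test, grey points did not, black bars are list medians and the dashed line is the median of all 19775 genes (-0.02). The matrix list has the highest median (0.38), and 6 red points stand in 4 lists. The lists were drawn up with earlier results of these data known, so the order of the medians is a description only.

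For 4 of the called genes the promoter is shown: ADGRL4 and 3 genes chosen after their values were seen (TFPI2, MMP7 and CCN2). They were picked because each matches a search pattern for AP-1 or for TEAD factors. FOSL1 belongs to AP-1, and CCN2 is a known TEAD target. Capitals mark TGANTCA, a loose AP-1 pattern in which N is any base, and CATTCC or its reverse complement GGAATG (TEAD). The sequences are RefSeq's, 250 bases before to 50 after the annotated start, 5′ to 3′ on the gene's own strand, build GRCh38.p14. ADGRL4 is at chr1:79006681-79006980, TFPI2 at chr7:93890704-93891003, MMP7 at chr11:102530698-102530997 and CCN2 at chr6:131951323-131951622, all on the minus strand.
ADGRL4: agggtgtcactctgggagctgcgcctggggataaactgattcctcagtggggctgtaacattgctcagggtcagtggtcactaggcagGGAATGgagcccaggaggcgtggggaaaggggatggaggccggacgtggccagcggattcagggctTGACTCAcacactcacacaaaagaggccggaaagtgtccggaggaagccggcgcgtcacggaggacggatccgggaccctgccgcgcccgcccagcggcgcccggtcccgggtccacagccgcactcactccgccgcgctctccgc
TFPI2: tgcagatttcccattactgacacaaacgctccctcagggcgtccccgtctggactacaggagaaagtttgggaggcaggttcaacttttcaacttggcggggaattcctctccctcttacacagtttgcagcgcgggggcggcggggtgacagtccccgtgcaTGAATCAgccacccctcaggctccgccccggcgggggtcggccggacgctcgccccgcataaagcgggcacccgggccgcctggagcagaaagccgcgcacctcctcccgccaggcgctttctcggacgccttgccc
MMP7: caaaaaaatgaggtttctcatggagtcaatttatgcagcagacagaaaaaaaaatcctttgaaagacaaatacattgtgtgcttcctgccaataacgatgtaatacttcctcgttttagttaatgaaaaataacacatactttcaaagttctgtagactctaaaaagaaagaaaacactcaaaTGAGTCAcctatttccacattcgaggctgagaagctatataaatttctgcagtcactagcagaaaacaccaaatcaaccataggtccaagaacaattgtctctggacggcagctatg
CCN2: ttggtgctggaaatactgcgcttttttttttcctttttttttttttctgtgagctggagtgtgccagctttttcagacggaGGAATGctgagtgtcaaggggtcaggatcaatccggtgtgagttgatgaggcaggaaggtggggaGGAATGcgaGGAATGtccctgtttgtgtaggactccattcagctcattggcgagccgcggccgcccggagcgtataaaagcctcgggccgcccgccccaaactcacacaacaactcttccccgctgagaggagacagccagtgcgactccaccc
ADGRL4 holds the AP-1 letters at -96 and the TEAD letters at -162 from the start. TFPI2 holds the AP-1 letters at -87 and MMP7 at -67. CCN2 holds the TEAD letters 3 times, at -169, -104 and -95. Of the 27 called genes, 22 had an entry in the promoter table. DKK2, PHLDA2, PHLDA1 and FOSL1 were not among the genes with a match to either motif, for want of a match or of an entry. The AP-1 pattern was in 3 of the 22 called genes with an entry and in 7.71% of all 35116 promoters. The TEAD motif was in 5 of the 22 and in 14.0% of all, both strands searched. A called gene counted once for a match in any of its entries, while the shares are of single entries. The counts and shares are thus in unlike units. The motifs do not overlap each other, and a match is a description of letters only.

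Decreases that passed the test were few and of dim genes. HSD3B1, a steroid dehydrogenase known from placenta, had 4.88, 3.53 and 10.7 with bFGF, against 115, 53.2 and 45.4 without (-1.89 ± 0.28, adjusted p = 0.0442). Each bFGF pool was below the median signal of its array. In the other 4 groups of the study its mean was between 2.76 and 19.2, so the day 10 pools without bFGF were the bright ones. SLC18A3, the vesicular acetylcholine transporter of cholinergic neurons, had 6.76, 4.64 and 2.28 with bFGF, against 29.8, 33.1 and 25.4 without (-1.15 ± 0.15, adjusted p = 0.0328). TBC1D28 had 3.87, 4.90 and 2.85 with bFGF, against 21.8, 26.7 and 24.3 without (-1.02 ± 0.15, adjusted p = 0.0451). For SLC18A3 and TBC1D28 the values of both groups were below the median signal of their arrays.

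Neural progenitor and neuronal genes did not pass the test. Of 18 measured progenitor genes 0 were called, 2 were higher and 5 lower in all 3 pools (13.2% and 15.7% of all genes), and the median was -0.08 (-0.19 to -0.02 without 1 array or pool). PAX6, a master gene of neuroectoderm, had 1412, 1534 and 1446 with bFGF and 1875, 1870 and 2585 without (-0.51 ± 0.17, adjusted p = 0.512), with groups that did not overlap. SOX2 averaged 8067 with bFGF and 9466 without (-0.22), and nestin (NES) 1642 and 1263 (0.38). Of 17 proneural and neuronal genes 0 were called and the median was -0.15. ISL1, a factor of motor and sensory neurons, had 29.0, 105 and 32.1 with bFGF and 141, 160 and 64.7 without (-1.03, adjusted p = 0.232). Without pool 1 the median of the neuronal list was 0.09, without pool 3 -0.31, without control pool 1 0.01 and without control pool 3 -0.26. Of 25 cell cycle genes 0 were called, and their changes ran from -0.32 to 0.38 with a median of -0.09.

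Regional genes of the forebrain, midbrain and hindbrain held some large changes that missed the threshold. DLX1, a homeobox gene of the ventral forebrain, had 202, 122 and 72.8 with bFGF and 25.2, 15.7 and 35.9 without (1.77 ± 0.38, adjusted p = 0.178). Its neighbour DLX2 had 150, 143 and 105 with bFGF and 2.09, 84.9 and 49.6 without (1.58 ± 0.60, adjusted p = 0.579). Both had groups that did not overlap, and pool 3 gave the lowest bFGF value of each. EN2, a midbrain-hindbrain gene known to be maintained by FGF8, had 36.0, 30.3 and 22.8 with bFGF and 1.13, 8.34 and 2.13 without (1.21 ± 0.22, adjusted p = 0.0988). At day 17 EN2 passed (1.71, adjusted p = 0.00966). ALDH1A1 and ALDH1A3, which make retinoic acid, had changes of -1.57 and -1.002 at day 10 (adjusted p = 0.357 and 0.429), and passed as decreases at day 17 (-2.97 and -1.92).

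Markers of other cell types were read beside these results, because several called genes are known from endothelium or mesenchyme. Of the endothelial list 15 were measured, and ADGRL4 alone passed (0.121% of all genes rose). ADGRL4 is a marker given for this comparison, so its call on this list is a description only. 6 were higher and 2 lower in all 3 pools (13.2% and 15.7% of all genes). The median was 0.35, and 0.04 without pool 1, 0.15 without bFGF pool 1 and 0.18 without control pool 1. The summed signal of 6 endothelial markers was 405, 672 and 530 with bFGF and 309, 482 and 284 without, higher with bFGF in each pool, with 0 of 6 passing the test. In ES cells the same sum was 439, 551 and 330, and KDR averaged 275. A high sum therefore does not by itself mark endothelium here. PECAM1 averaged 49.1 with bFGF and 61.5 without, VWF 21.1 and 19.8, and EMCN 10.1 and 11.6. CDH5 averaged 78.4 with bFGF and 37.6 without (1.06, adjusted p = 0.489), and KDR 173 and 92.6 (0.82, adjusted p = 0.28). The summed signal of 6 mesenchymal markers was 3721, 5743 and 3753 with bFGF and 2855, 5560 and 2202 without, and again 0 of 6 passed. PRRX1, a mesenchymal homeobox gene, had 65.2, 81.4 and 64.5 with bFGF and 27, 11.9 and 4.05 without (1.57 ± 0.24, adjusted p = 0.0512). The other 5 mesenchymal markers had changes of 0.66 (COL1A1), 0.53 (PDGFRA), 0.16 (LUM), -0.27 (COL3A1) and -0.61 (DCN). Of the wider list of 16 mesenchyme and smooth muscle genes 0 passed. 7 were higher and 1 lower in all 3 pools, 5 had an unadjusted p under 0.05 with bFGF higher (3.88% of all genes), and the median was 0.19 (0.42 without control pool 2). Of 14 measured neural crest genes 0 passed. 4 were higher and 1 lower in all 3 pools, and the median was 0.28 (0.18 without bFGF pool 2 and 0.14 without pool 2). TWIST1, a factor of crest and mesenchyme, had 168, 255 and 113 with bFGF and 21.7, 52.7 and 52.3 without (1.73 ± 0.47, adjusted p = 0.346). SNAI2 and ETS1, both factors of migrating crest, had changes of 0.74 and 1.01 (adjusted p = 0.274 and 0.161), with groups that did not overlap. The summed signal of 6 neuronal markers was 699 to 929 with bFGF and 969 to 1333 without, groups that did not overlap, with 0 of 6 passing. The members did not move together. In pool 3 DCX had 222 with bFGF and 608 without, and ELAVL3 17.9 and 35.8. STMN2, ELAVL4, INA and NHLH1 were higher with bFGF in that pool. The pluripotent sums were 9240 to 10883 with bFGF and 9519 to 11464 without, beside 20206 to 22376 in ES cells. With and without bFGF, the epithelial sums were 1500 to 1632 and 1619 to 1871. The endodermal sums were 115 to 304 and 127 to 269, and those of neural crest 864 to 1218 and 629 to 1028. The part of any of these in the changes above was not tested.

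The increases of day 10 were followed to day 17, where the pools are other samples in the same fit. Of the 24 increases 20 had a positive change at day 17 (47.8% of all genes), 16 had an unadjusted p under 0.05 there with bFGF higher (4.57% of all genes), and 10 passed the test as increases, beside 0.263% of all genes (57, or 0.288%, passed as decreases at day 17). Both days share 1 estimate of each gene's spread, so these calls are not independent of those of day 10. These 10 are 41.7% of the day 10 increases and 19.2% of the 52 of day 17. They were ADGRL4, TM4SF1, LOX, DKK2, PHLDA2, NT5E, TFPI, GNG11, PHLDA1 and TM4SF18. ADGRL4 had 193, 251 and 129 with bFGF at day 17, against 8.80, 6.68 and 19.3 without (2.89, adjusted p = 0.00593), close to its day 10 change. Of the 3 decreases 2 had a negative change at day 17 and 0 passed.

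Other genes called at day 10 did not pass at day 17. COL8A1 averaged 633 with bFGF and 450 without at day 17 (0.46, adjusted p = 0.474), and its level without bFGF was 107 at day 10 and 2.66 at day 6. SPP1 averaged 1022 with bFGF and 1298 without at day 17 (-0.39, adjusted p = 0.567). CCN2 averaged 2696 with bFGF and 2524 without at day 17 (0.10), EDN1 283 and 220 (0.36), and MMP7 120 and 57.4 (0.90). For the difference between the effects of the days, 0 of 19775 genes passed in limma's test (0%), although 1707 (8.63%) had an unadjusted p under 0.05. The difference was 1.75 for COL8A1 (adjusted p = 0.164), 1.88 for SPP1 (adjusted p = 0.136) and 1.44 for EDN1 (adjusted p = 0.306). These genes were called at day 10, so their differences are a description. A loss of the response by day 17 is not shown for any of them.

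**Figure D3:**
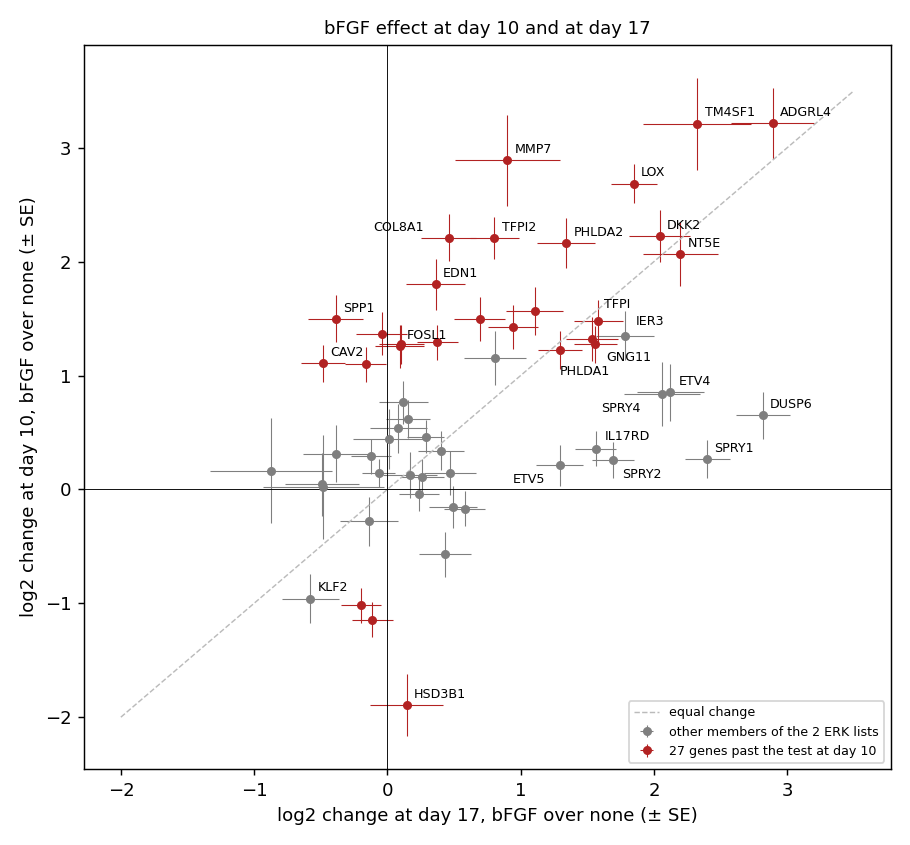
Log2 change with bFGF at day 10 (vertical) against day 17 (horizontal), with standard errors, for the 27 genes called at day 10 (red) and the other members of the 2 ERK lists (grey); the dashed line is equal change. DUSP6, SPRY1, SPRY2 and ETV5 lie far below the line, and COL8A1, TFPI2, EDN1 and MMP7 far above it, while 0 genes passed the test of the difference.

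**Figure D4:**
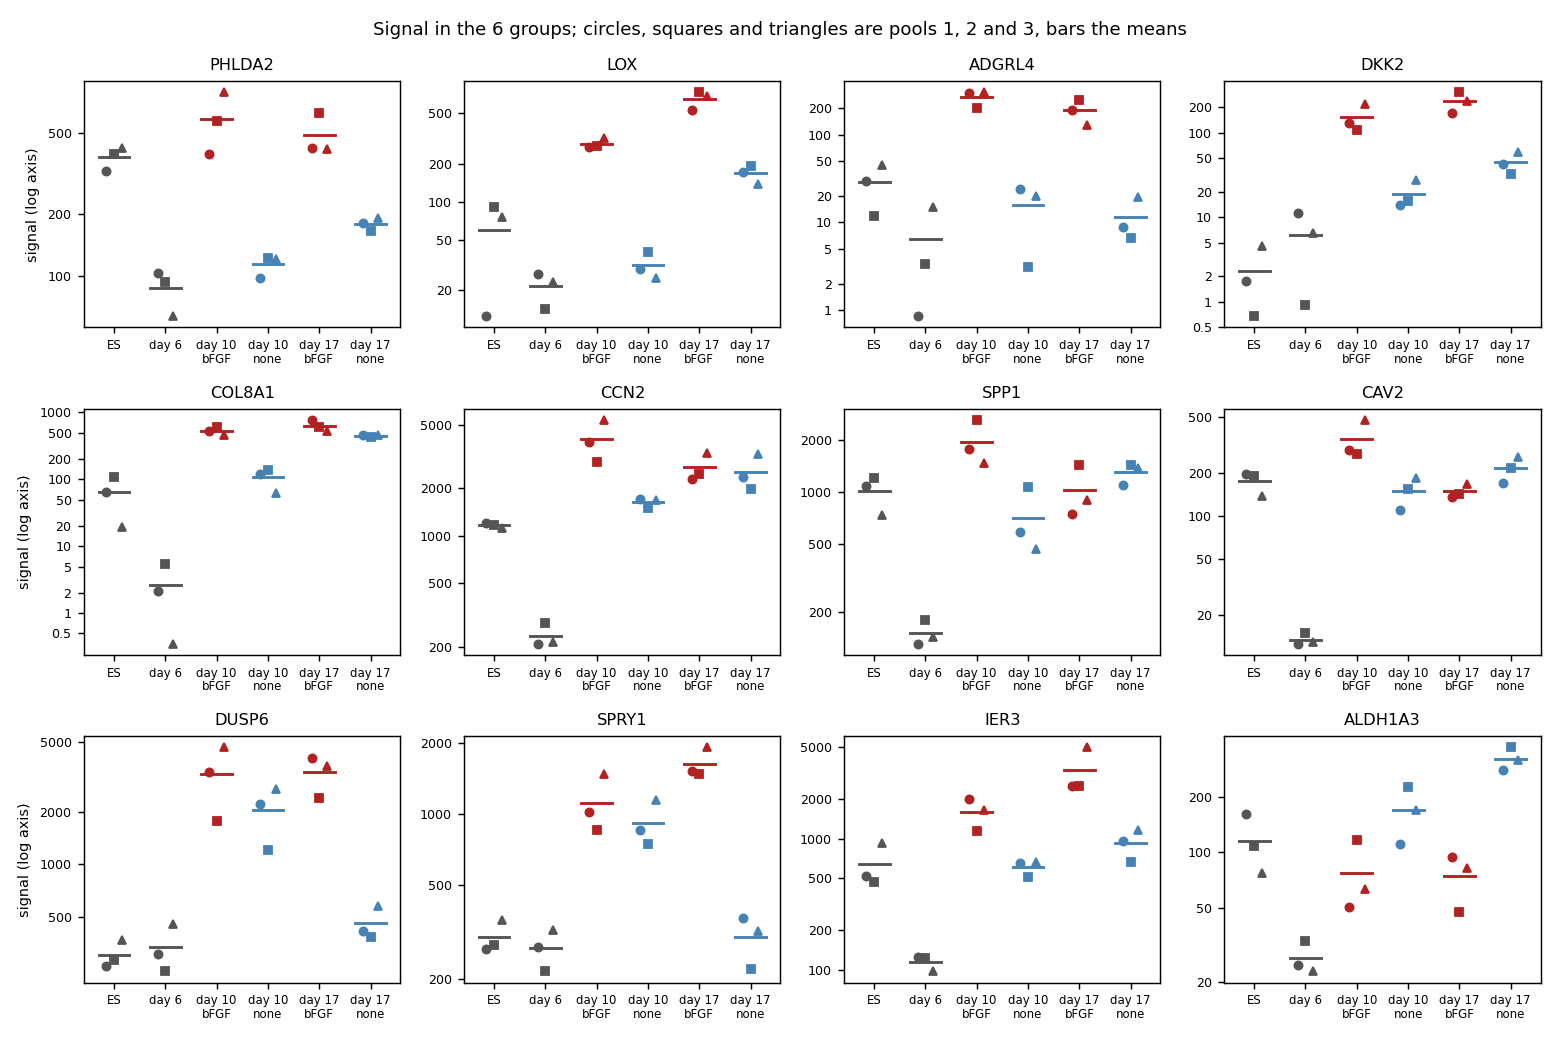
Signal of 12 genes on all 18 arrays, on log axes with a scale of its own in each panel; symbols are pools and bars are means. PHLDA2, LOX, ADGRL4 and DKK2 are higher with bFGF at both days, COL8A1, CCN2, SPP1 and CAV2 passed the test at day 10 and not at day 17 (the difference between the days did not pass its own test), and DUSP6 and SPRY1 are high at day 10 in both groups.

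How far each call holds without an array differed between genes. LOX passed without each of the 6 day 10 arrays in turn (adjusted p 0.00406 to 0.0114). COL8A1 and TFPI2 passed without any array other than bFGF pool 3 (without it, adjusted p = 0.089 and 0.0576). ADGRL4 passed without 4 of the 6 and missed without bFGF pool 1 or 3 (adjusted p up to 0.105), and PHLDA2 passed without bFGF pool 1 or 2 and missed without each of the other 4 (up to 0.0726). DKK2 passed only without bFGF pool 2 (otherwise up to 0.105). 16 of the 27 passed without none of the 6, with adjusted p from 0.0542 to 0.259. When the pool number was left out of the fit, 6 of the 27 passed (ADGRL4, COL8A1, DKK2, LOX, MMP7 and PHLDA2), and 0 of the 27 passed on the day 10 arrays alone. Without all arrays of pool 2, 5 genes passed (ADGRL4, DKK2, EDN1, LOX and MMP7), and without pool 1 or pool 3 none did. With all probe sets of a gene averaged, the changes of DKK2 and PHLDA2 were 0.93 and 0.75 and missed the threshold.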

How the data were processed

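RNA pools were hybridised to Affymetrix arrays of 54675 probe sets, 1 colour each. The deposited table gives linear signals (intensity). Its 2% trimmed mean was 150.016 to 150.026 on all 18 arrays, so no further scaling was applied. The summarisation software is not given in the sources used here. By GEO's platform annotation 41097 probe sets name 1 gene, 1801 several, and 11777 are unnamed here. One probe set per gene was kept (no _x_at where another existed, then the highest mean), which gave 19775 genes. Values were analysed as log2(signal + 16), which understates changes of dim genes. limma 3.58.1 in R 4.3.3 (lmFit, eBayes) was fitted to the 12 neuroepithelial arrays, with 1 mean per group and the pool number as a fixed block (6 residual degrees of freedom), two-sided, with Benjamini-Hochberg adjusted p under 0.05. Precision is limited by 3 arrays per group. Same-numbered day 10 arrays deviated together (correlations of deviations from group means 0.40, 0.67 and 0.45, against -0.51 to 0.15 otherwise), and the pairing comes from the titles and this check. Named genes were up to 15 called genes with the largest change each way that carry an approved symbol, 3 given markers, and from each of 27 lists at most 4 members, those with the largest absolute change; others are said to be named after their values were seen, or serve to describe a list. The members, lists and alternatives were chosen with earlier results of these data known. The code was tested on simulated data. No detection calls were used, so a low signal has no bound here.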

Additional observations from a re-analysis of the deposited data

Results flagged for a closer look

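6 genes had a difference of 1 sign with bFGF in all 3 pools at day 10 and of the opposite sign in all 3 at day 17, and are given here as values. In limma's test of the difference between the days each missed the threshold over all genes. CAV2 changed by 1.11 at day 10 and by -0.48 at day 17 (log2; adjusted p of the difference 0.136), and FLRT2-AS1 by 1.10 and -0.16 (0.183). SPRED3, an inhibitor of RAS signalling, had -0.57 and 0.43 (0.437). DLX1, a forebrain homeobox gene, had 1.77 and -1.04 (0.23), and CHRD, the BMP antagonist chordin, 0.68 and -0.84 (0.457). TTR, the thyroid hormone carrier transthyretin, had 1.04 and -1.83 (0.0727). These genes were taken from the called genes and from the gene list members with the largest absolute change. They therefore say nothing of how common such opposite signs are.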

How the results depend on the processing

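The 27 calls of day 10 depended on the pool block, the pseudocount, the filter on dim genes, the variance prior, the rule for probe sets and the number of arrays. The count was 6 with no replicate block over the 12 arrays, 0 with the block on the day 10 arrays alone (1330 genes at an unadjusted p under 0.05), 6 with a pseudocount of 1, 47 among the upper 60% of genes by signal (41 higher, 6 lower), 69 with a trended and robust prior (61 higher, 8 lower) and 10 with the mean of probe sets (9 higher, 1 lower). It was 18 with no block over all 18 arrays, 35 with the block over 18, 38 with a random block, 40 with a pseudocount of 64, 29 after quantile scaling (28 higher, 1 lower) and 28 over all probe sets. Leaving out 1 array gave 1 to 7, the lowest without bFGF pool 3, and leaving out a whole pool gave 0 to 5, with 0 without pool 1 or 3 (1281 and 1327 genes at an unadjusted p under 0.05). A fit on fewer arrays has fewer residual degrees of freedom. For day 17 the count was 109. It was 26 and 67 with no replicate block over 12 and 18 arrays, 32 and 245 with pseudocounts of 1 and 64, 262 in the upper 60%, 265 with the trended prior, and 0 to 98 with an array or pool left out. For the difference of the effects (0) it was 1 with the block over 18 arrays, 14 with a pseudocount of 64, 2 after quantile scaling, 12 in the upper 60%, 24 with the trended prior, 1 with the mean of probe sets, and 0 to 1 with an array or pool left out (1 without day 10 control pool 2). The cause of the other shifts was not tested. The ribosomal control list had a median of -0.27, which was 0.01 after quantile scaling and 0.02 without pool 3. The dose unit at day 10, the single cell line and the unknown origin of the pools limit what these values stand for.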
